A study of Saccharomyces cerevisiae with 18 samples.

Results

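The enzymes and the permease that supply yeast with methionine, cysteine and S-adenosylmethionine were followed through 10 genes: MET2 (YNL277W), STR2 (YJR130C), STR3 (YGL184C), CYS4 (YGR155W), CYS3 (YAL012W), MET13 (YGL125W), MET6 (YER091C), SAM1 (YLR180W), SAM2 (YDR502C) and MUP1 (YGR055W). They were chosen by their gene identifiers, 10 of 6600 genes in the count tables, and all 10 passed the filter on low counts. RNA-seq libraries came from total RNA of 3 Saccharomyces cerevisiae strains, LP118, LP104-17 and LP085-Vc, which according to the series make diosgenin, a steroidal compound of plants. All share the laboratory strain background BY4742 and were grown in flasks in synthetic dextrose (SD) medium with 2% glucose at 30 °C and 250 rpm, with cells taken at 24 h and at 6 h and 3 libraries per strain and time, 18 in all. Neither the genotypes nor the introduced genes are listed in the labels, which also do not say whether a strain is 1 clone, so the strains are known here by name only. Whether the 3 libraries of each group were grown as separate cultures is not stated, so the p-values speak only of the spread among these samples, which may be technical. In bulk libraries, fewer cells with a transcript and less of that transcript per cell cannot be told apart.

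Yeast reduces sulfate to sulfide and joins it to O-acetylhomoserine to make homocysteine, which is then methylated to methionine or carried through cystathionine to cysteine. Methionine is activated to S-adenosylmethionine, the donor of methyl groups for many reactions, among them a step of ergosterol synthesis and the methylation of phospholipids. The pathway is known for control by the transcription factor Met4, which is brought to DNA by Cbf1 and by the paired zinc finger proteins Met31 and Met32 and is held back by the ubiquitin ligase subunit Met30 when methionine and S-adenosylmethionine are plentiful.

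Libraries held 5117869 to 7548113 counts. The 10 genes together took 0.887% ± 0.0189 of the counts in LP118 at 24 h and 0.404% ± 0.0105 at 6 h (SD, n = 3 each). In LP104-17 they took 0.968% ± 0.0746 at 24 h and 0.875% ± 0.0922 at 6 h, and the shares in LP085-Vc were 0.527% ± 0.0082 at 24 h and 1.33% ± 0.109 at 6 h. LP118 therefore had its larger share at 24 h and LP085-Vc its larger share at 6 h. The background strain is of mating type α, and in the 18 libraries the α-factor gene MF(ALPHA)1 had 1677 to 10546 counts and the a-factor receptor gene STE3 549 or more. Of the a-specific genes, MFA1 and MFA2 had 51 or fewer, STE2 34 to 87 and BAR1 34 to 315, while the α regulator MATALPHA1 was listed at 0 throughout. Genes of the shared background cannot tell the strains apart, but the nutritional marker genes differed between them. URA3 had 2626 to 3706 counts in LP118, 0 or 1 in LP104-17 and 1178 to 2841 in LP085-Vc. At 24 h LP118 and LP085-Vc overlapped (2626 to 2985 and 2542 to 2841), and at 6 h LP118 lay above (3390 to 3706 and 1178 to 1538). LEU2 had 483 to 671 in LP118, 86 to 227 in LP104-17 and 0 or 1 in LP085-Vc. LYS2 had 174 to 265 in LP118, 68 to 109 in LP104-17 and 8 to 61 in LP085-Vc. HIS3 had 2515 to 4172 in LP118, 1790 to 2261 in LP104-17 and 1454 to 2207 in LP085-Vc. With no genotype in the labels, these levels could not be set against what each strain should carry.

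The change over time differed between at least 1 pair of strains for 9 of the 10 genes, and 6 of them rose in LP118 and fell in LP085-Vc. Shares of all tested genes on the same basis were not computed, so neither count is set apart from the genome. In the single pairs, 60.1% (LP118 against LP085-Vc), 33.1% (LP104-17 against LP085-Vc) and 49.8% (LP118 against LP104-17) of all tested genes were called. Between 24 h and 6 h of culture, 7 of 10 genes rose in LP118 and none fell, 6 rose and 2 fell in LP104-17, and 1 rose and 8 fell in LP085-Vc, by edgeR's quasi-likelihood test at a Benjamini-Hochberg adjusted p below 0.05 over 6131 tested genes. Many genes of the genome were called in the same comparisons: 57.1% of tested genes in LP118 (26.6% higher, 30.5% lower), 70.9% in LP104-17 (35.2% higher, 35.7% lower) and 76.2% in LP085-Vc (37.9% higher, 38.3% lower). The totals of 7, 8 and 9 of 10 therefore lie near the shares called over all genes, and only the split by direction is set apart from them. The median log2 change of the 10 genes at 24 h against 6 h was 0.68 in LP118, 0.38 in LP104-17 and -0.79 in LP085-Vc, beside medians over all tested genes of -0.05, 0.001 and 0.0039.

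The difference between strains in that change was itself tested, as a difference of differences. Against LP085-Vc, the change over time was more positive in LP118 for 8 genes and more negative for 1 (60.1% of all tested genes called, 30.5% more positive and 29.6% more negative), with a median of 2.01 for the 10 genes and 0.0018 for all tested genes. With upper-quartile scaling, with a limma fit to the deposited FPKM values, and with only the groups compared in the fit, the split was 9 and 0. In LP104-17 against LP085-Vc it was more positive for 8 genes and more negative for none (33.1% called, 17.8% more positive and 15.3% more negative), with medians of 1.65 and -0.03. These comparisons share the LP085-Vc libraries and are not independent of each other. In LP118 against LP104-17 it was more positive for 4 genes and more negative for 2 (49.8% called, 24.5% more positive and 25.3% more negative), with medians of 0.28 and -0.01. That last split moved with the settings: it was 7 and 1 with upper-quartile factors and 6 and 0 with limma on FPKM. It was 4 and 1 with DESeq2 size factors or when genes of chromosomes V and IX were left out, MET6 being kept.

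**Figure D1:**
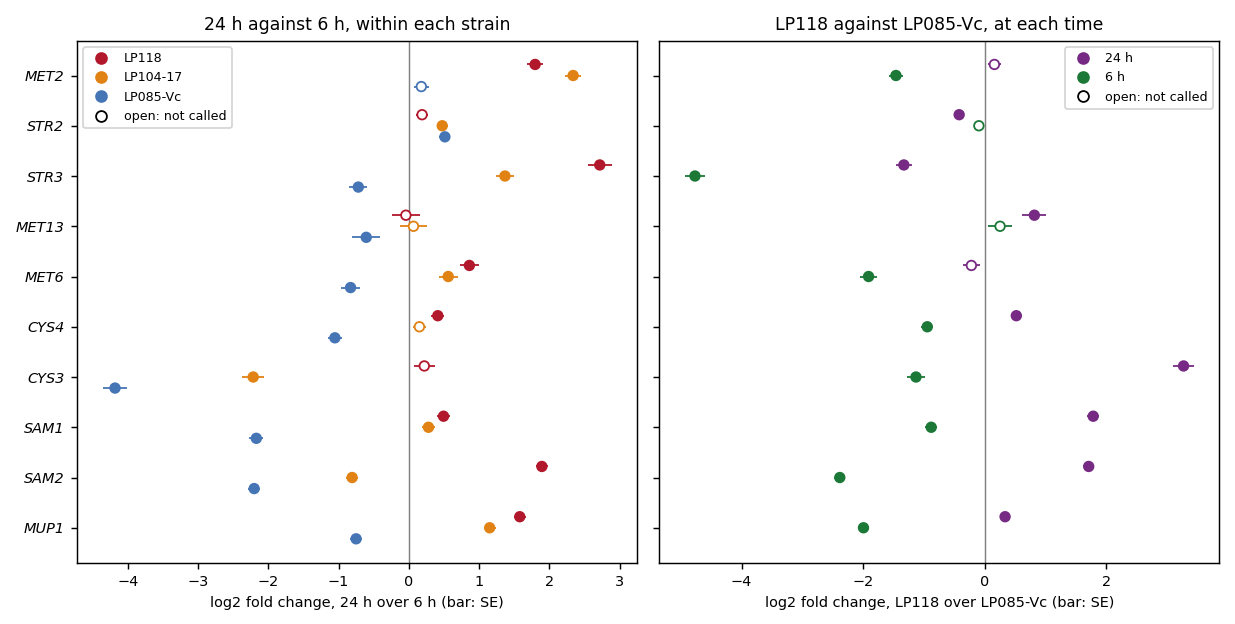
The log2 fold changes of the 10 genes, with standard errors, for 24 h over 6 h within each strain (left) and for LP118 over LP085-Vc at each time (right). Filled points were called at an adjusted p below 0.05 and open points were not. On the left most LP118 points lie above 0 and most LP085-Vc points below 0, and on the right most 6 h points lie below 0, with STR3 lowest at -4.77.

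Read as strain differences at each time, the same measurements gave lower levels at 6 h. At that time 8 of 10 genes were lower and none higher in LP118 against LP085-Vc, where 66.0% of all tested genes were called, 32.2% higher and 33.8% lower. That total is not far from the share over all genes, while all 8 lay in 1 direction. The median log2 difference was -1.30 for the 10 genes and -0.04 for all tested genes. In LP104-17 against LP085-Vc at 6 h the count was again 8 lower and none higher, where 11.5% of tested genes were called, 5.79% higher and 5.76% lower, with medians of -0.66 and 0.0032. The number called over all genes in that comparison, 708, depended on the libraries: it was 1206 without LP104-17 replicate 2, with 7 of the 10 genes called, and 344 with only the groups compared in the fit, with 6 called. In LP118 against LP104-17 at 6 h, 1 gene was higher and 6 were lower (58.5% called, 28.7% higher and 29.8% lower), with medians of -0.47 and -0.03, and the split was 0 and 7 in the limma fit to FPKM.

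At 24 h the differences from LP085-Vc had mostly turned. In LP104-17, 7 genes were higher and none lower (52.6% of tested genes called, 25.1% higher and 27.4% lower), with a median of 0.74 against -0.05 for all tested genes. In LP118, 6 were higher and 2 lower (77.7% called, 38.5% higher and 39.2% lower), with medians of 0.43 and -0.01. The 8 of 10 called in LP118 is near the share over all genes. In LP118 against LP104-17 at 24 h, 3 genes were higher and 5 lower (68.6% called, 35.0% higher and 33.6% lower), with medians of -0.24 and 0.03, and that total was also near the share over all genes.

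**Figure D2:**
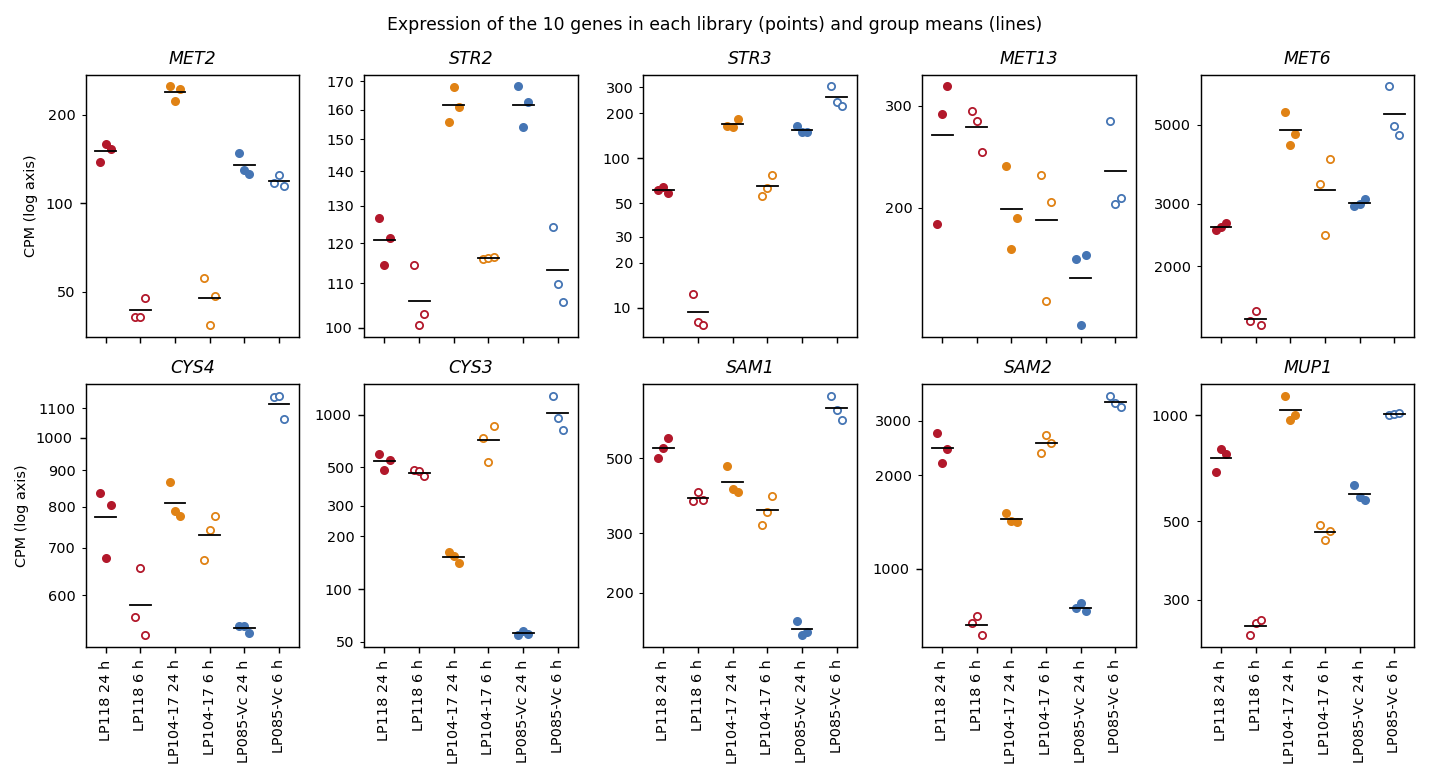
Counts scaled to effective library size (CPM, log axis) of each of the 10 genes in every library, by strain and time, with the group mean as a line; filled points are 24 h and open points 6 h. The LP085-Vc mean at 6 h is the highest of its panel for CYS3, CYS4, MET6, SAM1, SAM2 and STR3, and STR3 in LP118 at 6 h lies apart at 9.37 ± 2.61 CPM.

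Levels of different genes were compared on the deposited FPKM scale, which divides by coding length. MET6 and SAM2 held the first and second place among the 10 genes in all 6 groups. SAM2 led in LP118 at 24 h with 2241 ± 176 FPKM (rank 62 of 6600), in LP104-17 at 6 h with 2179 ± 139 and in LP085-Vc at 6 h with 2880.0 ± 28.5 (rank 33). MET6 led in the other groups, with 575 ± 10.5 FPKM in LP118 at 6 h, 2136 ± 222 in LP104-17 at 24 h and 1202 ± 28.1 in LP085-Vc at 24 h. In each group the libraries of the first and second gene did not overlap. The lowest of the 10 was STR3 in LP118 at both times, STR2 in LP104-17 at 24 h and in LP085-Vc at 6 h, MET2 in LP104-17 at 6 h, and CYS3 in LP085-Vc at 24 h. STR3 in LP118 at 6 h had 6.26 ± 1.84 FPKM and ranked 5756, and CYS3 in LP085-Vc at 24 h had 43.5 ± 0.902 FPKM. Several neighbours in the middle of the order overlapped: CYS4, SAM1, CYS3 and MUP1 formed a run of overlapping levels in LP118 at 24 h, between 464 ± 49.3 and 534 ± 44.4 FPKM, and CYS3 overlapped CYS4 in all 3 strains at 6 h.

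MET2 encodes homoserine O-acetyltransferase, which makes the carbon skeleton that accepts sulfide. Scaled to effective library size, it had 138, 159 and 153 CPM in LP118 at 24 h, against 40.9, 40.8 and 47.7 at 6 h. LP104-17 had 249.7, 223 and 244 CPM at 24 h, against 55.6, 38.4 and 48.3 at 6 h, and LP085-Vc 148, 129.5 and 126 at 24 h, against 117, 125 and 114 at 6 h. The 24 h libraries of LP118 and of LP104-17 lay far above their 6 h libraries, while those of LP085-Vc lay just above theirs. The log2 change was 1.80 ± 0.12 in LP118 (SE, edgeR adjusted p = 2e-10), 2.34 ± 0.12 in LP104-17 (adjusted p = 8.05e-13) and 0.18 ± 0.11 in LP085-Vc, which was not called (adjusted p = 0.142). MET2 was lower at 6 h in LP118 and in LP104-17 than in LP085-Vc, by log2 differences of -1.46 ± 0.12 and -1.33 ± 0.11. At 24 h it was higher in LP104-17 (0.83 ± 0.11), and in LP118 the difference of 0.16 ± 0.11 was not called and its libraries overlapped those of LP085-Vc. That difference in LP118 was called higher with upper-quartile factors (adjusted p = 0.021) and in the limma fits to FPKM (0.0134 and 0.0145). The change over time was smaller in LP118 than in LP104-17 (-0.54 ± 0.16, edgeR adjusted p = 0.00895), a call that the limma fit to FPKM did not give (adjusted p = 0.0626).

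MET13 encodes the main methylenetetrahydrofolate reductase, which makes the methyl donor that methionine synthase uses. Its replicate libraries scattered more than those of most of the other genes, with 188, 290.2 and 324 CPM in LP118 at 24 h, against 293, 283 and 249.8 at 6 h. LP104-17 had 236, 169.7 and 192 at 24 h, against 228, 138 and 205 at 6 h, and LP085-Vc 163, 126 and 166 at 24 h, against 282, 203 and 208 at 6 h. Neither LP118 (-0.04 ± 0.20) nor LP104-17 (0.07 ± 0.20) differed detectably between times, and their libraries overlapped. In LP085-Vc MET13 fell by 0.61 on the log2 scale (SE 0.20, edgeR adjusted p = 0.00996), and the call was lost without LP085-Vc replicate 2 at 24 h (adjusted p = 0.0556) or replicate 1 at 6 h (adjusted p = 0.0613). In LP104-17 against LP085-Vc at 24 h the difference was 0.39 ± 0.20, not called (edgeR adjusted p = 0.108), though the LP104-17 libraries lay above without overlap. That difference was called higher in the limma fits to FPKM (adjusted p = 0.0495 and 0.0499) and with only the groups compared (0.011). MET13 was higher in LP118 than in LP085-Vc at 24 h (0.82 ± 0.20, edgeR adjusted p = 0.00101). It was also called higher in LP118 than in LP104-17 at 6 h (0.53 ± 0.20, edgeR adjusted p = 0.0273), a call lost without LP104-17 replicate 2 (adjusted p = 0.102), without LP118 replicate 1 (0.0789) or replicate 2 (0.0531), and in the limma fit to FPKM (0.0707). At 24 h the same difference was 0.43 ± 0.20 and missed the threshold (edgeR adjusted p = 0.0633), but passed without LP104-17 replicate 1 (0.0301) or LP118 replicate 1 (0.0054). It also passed with upper-quartile factors (0.0217), with the DESeq2 Wald test (0.0472), with only the groups compared (0.0491) and with the replicate number as a block (0.043). MET13 had no called difference in the change over time in any pair of strains, though 2 of these passed under other settings. LP104-17 against LP085-Vc passed without LP104-17 replicate 1 at 6 h (adjusted p = 0.042). LP118 against LP085-Vc, at 0.56 ± 0.28 and an edgeR adjusted p of 0.0894, passed without LP118 replicate 1 at 24 h (adjusted p = 0.0153), with upper-quartile factors (0.0208), in the limma fits to FPKM (0.0366 and 0.0373) and with only the groups compared (0.0284).

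MET6 encodes the cobalamin-independent methionine synthase, which methylates homocysteine. It had 2525, 2589 and 2647 CPM in LP118 at 24 h, against 1406, 1495 and 1369 at 6 h. LP104-17 had 5442, 4383 and 4709.6 at 24 h, against 3405, 2452 and 3996 at 6 h, and LP085-Vc 2951, 2990.1 and 3093 at 24 h, against 6404, 4975 and 4675 at 6 h. The time groups did not overlap within any strain, and the order of the times in LP085-Vc was opposite to that in the other strains. The log2 change over time was 0.86 ± 0.14 in LP118, 0.56 ± 0.14 in LP104-17 and -0.83 ± 0.14 in LP085-Vc, all called. It did not differ detectably between LP118 and LP104-17 (0.30 ± 0.19, edgeR adjusted p = 0.209). It did without LP104-17 replicate 2 at 6 h (adjusted p = 0.0188) or with upper-quartile factors (0.0369).

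MET6 is the 1 gene of the 10 on chromosome V, whose genes were lower as a group in LP118. The median log2 difference of the other 275 tested genes placed on chromosome V was -0.99 at 6 h and -1.08 at 24 h in LP118 against LP085-Vc, and -0.98 and -0.98 in LP118 against LP104-17. MET6 itself was -1.91 ± 0.14 at 6 h in LP118 against LP085-Vc, below that median, with 84.0% of the chromosome's genes above it. At 24 h it was -0.22 ± 0.14, not called (edgeR adjusted p = 0.151) and above the median, with 28.4% of the chromosome's genes above it. The MET6 libraries of LP118 at 24 h still lay below those of LP085-Vc without overlap. With only the groups compared in the fit, MET6 was called lower there (adjusted p = 0.0462). Against LP104-17 MET6 was -1.21 ± 0.14 at 6 h and -0.91 ± 0.14 at 24 h, with 64.7% and 47.3% of the chromosome's genes above it. In LP104-17 against LP085-Vc the chromosome's median was -0.0016 at 6 h and -0.04 at 24 h, and MET6 was -0.70 ± 0.14 and 0.69 ± 0.14; the call at 6 h was lost when only the groups compared entered the fit (adjusted p = 0.0785). Between times in LP118 the median of chromosome V was -0.04, beside 0.86 for MET6. The part of the chromosome-wide difference in the level of MET6 was not tested.

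**Figure D3:**
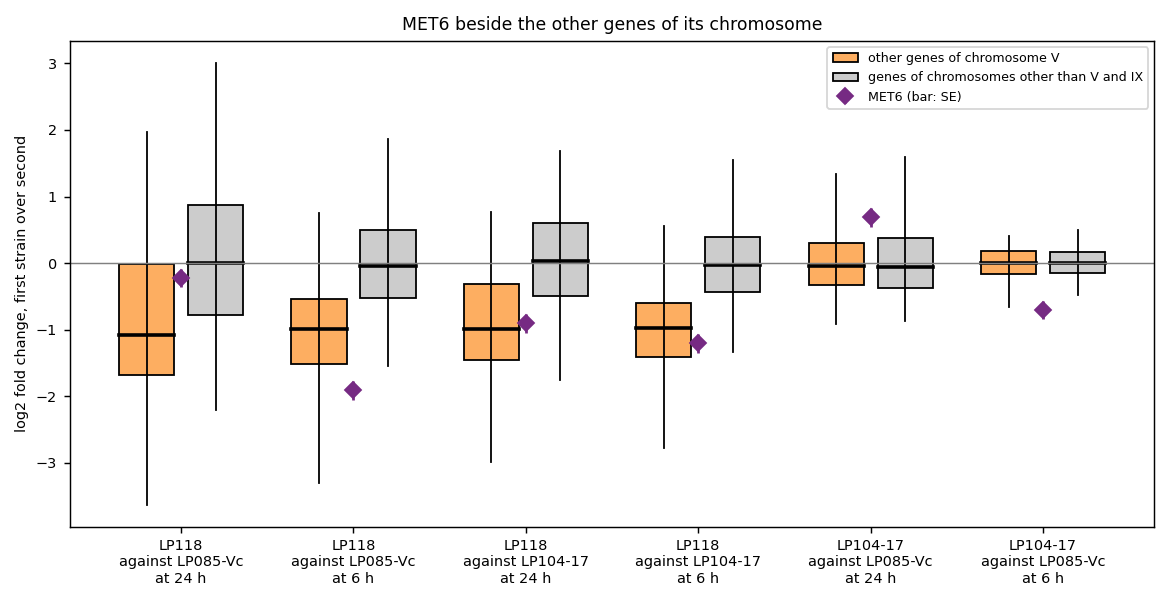
The log2 fold change of MET6 (point with standard error) beside the other 275 tested genes of chromosome V and the tested genes of chromosomes other than V and IX, for the comparisons between strains. Boxes span the quartiles with a line at the median, and thin lines run from the 5th to the 95th percentile. Chromosome V lies about 1 log2 unit below the rest in LP118 at both times, and MET6 lies below the chromosome's median at 6 h and above it at 24 h against LP085-Vc.

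STR2 and STR3 run the route from cysteine back to homocysteine: STR2 encodes cystathionine gamma-synthase and STR3 cystathionine beta-lyase. STR3 had 61.5, 64.7 and 58.8 CPM in LP118 at 24 h, against 12.4, 8.09 and 7.66 at 6 h. LP104-17 had 165, 162 and 182 at 24 h, against 55.9, 63.5 and 77.5 at 6 h, and LP085-Vc 166, 149 and 151 at 24 h, against 303, 240.1 and 224 at 6 h. The 3 strains did not overlap at 6 h, and LP118 was the lowest at both times. STR3 rose over time by 2.72 ± 0.17 in LP118 and 1.37 ± 0.13 in LP104-17 and fell by 0.72 ± 0.13 in LP085-Vc on the log2 scale. It was 27.2-fold lower in LP118 than in LP085-Vc at 6 h (edgeR adjusted p = 1.01e-14), which is the largest difference of any of the 10 genes in any of the comparisons, and it rests on 62, 39 and 40 counts in the LP118 libraries. At 24 h the log2 difference was -1.33 ± 0.13 in LP118 against LP085-Vc (edgeR adjusted p = 2.11e-08), and in LP104-17 against LP085-Vc it was 0.13 ± 0.13, not called, with overlapping libraries.

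STR2, which works just before STR3, moved little. It had 127, 114 and 121 CPM in LP118 at 24 h, against 114, 101 and 103 at 6 h. LP104-17 had 156, 168 and 161 at 24 h, against 116, 116 and 116 at 6 h, and LP085-Vc 168, 154 and 163 at 24 h, against 124, 109.9 and 106 at 6 h. At 6 h the LP118 libraries lay below those of LP104-17 without overlap, and both overlapped those of LP085-Vc, and at 24 h LP118 lay below both others. The difference at 6 h between LP118 and LP104-17 was -0.13 ± 0.08 and was not called (edgeR adjusted p = 0.171), but it was called lower with upper-quartile factors (adjusted p = 0.022) and in the limma fits to FPKM (0.0172 and 0.0167). STR2 rose over time in LP104-17 (0.48 ± 0.08) and in LP085-Vc (0.51 ± 0.08), where it was the 1 gene of the 10 that rose. In LP118 the change of 0.19 ± 0.08 missed the threshold (edgeR adjusted p = 0.0543) and passed it without LP118 replicate 1 at 6 h (adjusted p = 0.0276) or replicate 2 at 24 h (0.0101). It also passed with upper-quartile factors (0.00465), in the limma fits to FPKM (0.000593 and 0.000581), with the DESeq2 Wald test (0.0498) and with only the groups compared (0.0388). At 24 h STR2 was lower in LP118 than in LP104-17 and in LP085-Vc (-0.42 ± 0.08 and -0.42 ± 0.08). Its change over time was called more negative in LP118 than in LP085-Vc (-0.32 ± 0.11, edgeR adjusted p = 0.0194) and than in LP104-17 (-0.29 ± 0.11, edgeR adjusted p = 0.0431). Both calls were lost with upper-quartile scaling (adjusted p = 0.265 and 0.38) and in the limma fit to log2(FPKM + 1) (0.572 and 0.307). The call against LP085-Vc was also lost with only the groups compared in the fit (0.106) and without LP085-Vc replicate 3 at 6 h (0.0609), LP118 replicate 1 at 6 h (0.0633) or LP118 replicate 2 at 24 h (0.16). The call against LP104-17 was lost without any 1 of 8 libraries of the 12 compared: all 3 of LP104-17 at 6 h, its replicates 2 and 3 at 24 h, LP118 replicate 1 at 6 h and LP118 replicates 2 and 3 at 24 h (adjusted p between 0.0512 and 0.134).

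CYS4 encodes cystathionine beta-synthase and CYS3 cystathionine gamma-lyase, which carry homocysteine to cysteine. CYS3 had 594, 479 and 551 CPM in LP118 at 24 h, against 478, 472 and 444 at 6 h. LP104-17 had 164, 155 and 141 at 24 h, against 736, 533 and 865 at 6 h, and LP085-Vc 54.7, 57.8 and 55.5 at 24 h, against 1277, 956 and 819 at 6 h. The LP118 libraries at 24 h lay at or above their 6 h level, while those of the other strains lay far below theirs. The log2 change over time was -4.18 ± 0.18 in LP085-Vc, an 18.2-fold fall, and -2.22 ± 0.16 in LP104-17. In LP118 it was 0.22 ± 0.15, which was not called (edgeR adjusted p = 0.231). The rise in LP118 was called in the limma fits to FPKM (adjusted p = 0.0291 and 0.0296) and with only the groups compared in the fit (0.0405). At 24 h CYS3 was 9.66-fold higher in LP118 than in LP085-Vc and 3.53-fold higher than in LP104-17. At 6 h it was lower in LP118 than in LP085-Vc (-1.13 ± 0.15). The lower level in LP104-17 than in LP085-Vc at 6 h was small and uncertain (-0.52 ± 0.15, edgeR adjusted p = 0.0319). The libraries overlapped, and the call was lost without LP104-17 replicate 1 (adjusted p = 0.0725) or 2 (0.0831), without LP085-Vc replicate 1 (0.149) or 2 (0.0514), or with only the groups compared in the fit (0.227).

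CYS4 changed over time in opposite directions in LP118 and LP085-Vc. It had 837, 676 and 804 CPM in LP118 at 24 h, against 559, 654 and 528 at 6 h. LP104-17 had 865, 789.6 and 776 at 24 h, against 673, 742 and 775 at 6 h, and LP085-Vc 542, 542 and 531 at 24 h, against 1143, 1145 and 1063 at 6 h. LP085-Vc had both the highest group, at 6 h, and the lowest, at 24 h. The log2 change over time was 0.41 ± 0.10 in LP118 and -1.05 ± 0.10 in LP085-Vc, both called, and 0.15 ± 0.09 in LP104-17, not called. The limma fits to FPKM did call the rise in LP104-17 (adjusted p = 0.0463 and 0.0455). CYS4 was lower at 6 h in LP118 (-0.94 ± 0.10) and LP104-17 (-0.61 ± 0.10) than in LP085-Vc, and higher at 24 h in both (0.52 ± 0.10 and 0.59 ± 0.10). The change over time did not differ detectably between LP118 and LP104-17 (0.26 ± 0.13, edgeR adjusted p = 0.114), but passed without LP118 replicate 2 at 6 h (adjusted p = 0.0368) or replicate 2 at 24 h (0.0267). It also passed with upper-quartile factors (0.0132) and in the limma fits to FPKM (0.00618 and 0.00605), so the call depended on the libraries and on the settings.

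The balance of the cystathionine genes was described by ratios of counts per coding base within a library. STR3 over STR2 was 0.703 ± 0.0631 in LP118 at 24 h and 0.120 ± 0.0248 at 6 h, 1.45 ± 0.113 and 0.776 ± 0.127 in LP104-17, and 1.32 ± 0.0410 and 3.09 ± 0.231 in LP085-Vc (SD, n = 3 each). STR3 thus exceeded STR2 in LP085-Vc at both times, in LP104-17 at 24 h only, and in LP118 at neither time. CYS3 over STR3, the cysteine-forming lyase over the homocysteine-forming one, was 10.4 ± 1.44 in LP118 at 24 h and 61.0 ± 13.3 at 6 h, 1.07 ± 0.139 and 12.9 ± 2.82 in LP104-17, and 0.427 ± 0.0341 and 4.66 ± 0.333 in LP085-Vc. It was smaller at 24 h than at 6 h in every strain, and largest in LP118 at each time. Of 27 pairwise comparisons of these ratios and of SAM1 over SAM2, 24 had groups that did not overlap, each with an exact two-sided permutation p of 0.1, the smallest that 3 against 3 libraries allow, and 0.112 after adjustment over the 27, so none could reach 0.05.

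**Figure D4:**
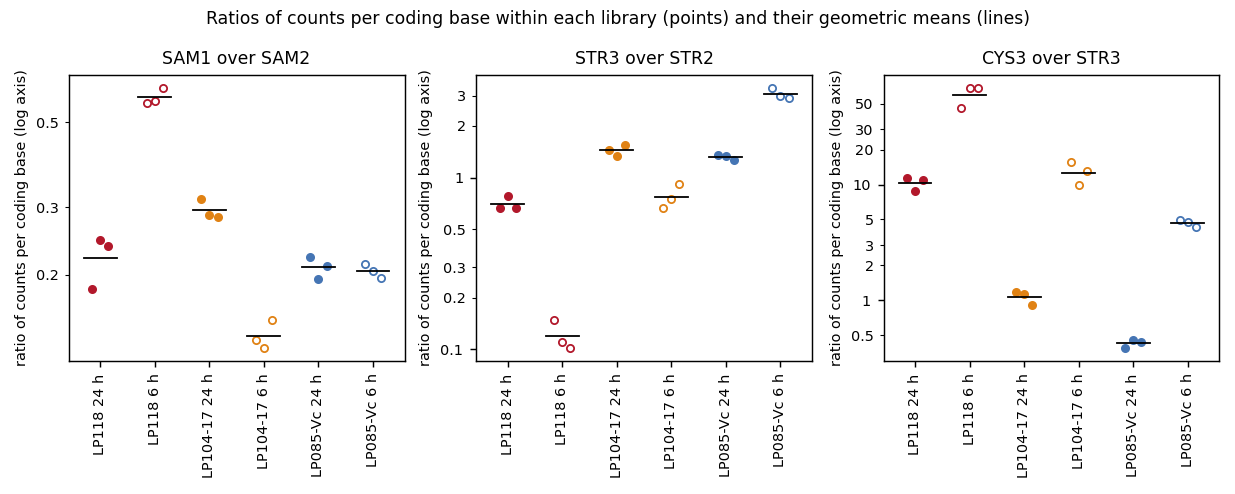
Ratios of counts per coding base within each library for SAM1 over SAM2, STR3 over STR2 and CYS3 over STR3, by strain and time, on a log axis, with geometric means as lines. SAM1 over SAM2 is highest in LP118 at 6 h, at 0.582 ± 0.0290, where STR3 over STR2 is lowest, at 0.120 ± 0.0248.

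SAM1 and SAM2 encode the paired S-adenosylmethionine synthetases. SAM2 had 2734, 2199 and 2433 CPM in LP118 at 24 h, against 666, 703 and 613 at 6 h. LP104-17 had 1511, 1425 and 1412 at 24 h, against 2368, 2696 and 2546 at 6 h, and LP085-Vc 745, 772 and 731 at 24 h, against 3604, 3411 and 3333 at 6 h. The order of the strains at 24 h, LP118 highest and LP085-Vc lowest, was the reverse of that at 6 h, and no groups overlapped at either time. SAM2 rose over time in LP118 (1.89 ± 0.09) and fell in LP104-17 (-0.81 ± 0.08) and in LP085-Vc (-2.20 ± 0.09). The change over time differed by 4.10 ± 0.12 between LP118 and LP085-Vc (edgeR adjusted p = 1.76e-15) and by 2.70 ± 0.12 between LP118 and LP104-17. At 6 h SAM2 was 5.22-fold lower in LP118 than in LP085-Vc, and at 24 h 3.27-fold higher.

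SAM1 differed from SAM2 in how it moved. It had 499.8, 537 and 576 CPM in LP118 at 24 h, against 373, 397 and 375 at 6 h. LP104-17 had 473, 405 and 398 at 24 h, against 318, 346 and 387 at 6 h, and LP085-Vc 165, 150.0 and 153 at 24 h, against 765, 694 and 649 at 6 h. Only LP085-Vc had its low libraries at 24 h. SAM1 rose over time in LP118 (0.49 ± 0.09), fell in LP085-Vc (-2.17 ± 0.10), and rose slightly in LP104-17 (0.28 ± 0.09, edgeR adjusted p = 0.0131), a call lost without LP104-17 replicate 1 at 24 h (adjusted p = 0.0893) or replicate 1 at 6 h (0.0754). The change of SAM1 over time did not differ detectably between LP118 and LP104-17 (0.21 ± 0.13, edgeR adjusted p = 0.193). It did with upper-quartile factors (adjusted p = 0.0163) and in the limma fits to FPKM (0.0229 and 0.0228). At 24 h SAM1 was 3.45-fold higher in LP118 and 2.73-fold higher in LP104-17 than in LP085-Vc, and at 6 h 1.84-fold and 2.00-fold lower in the same strains. Per coding base, SAM1 over SAM2 was 0.222 ± 0.0337 in LP118 at 24 h and 0.582 ± 0.0290 at 6 h, 0.294 ± 0.0174 and 0.139 ± 0.0123 in LP104-17, and 0.209 ± 0.0134 and 0.204 ± 0.00880 in LP085-Vc. LP118 at 6 h was the group in which SAM2 exceeded SAM1 least, and LP085-Vc kept nearly the same ratio at both times although both genes fell.

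The coding sequences of SAM1 and SAM2 were compared because reads from near copies can be counted for the wrong gene. Over 1149 aligned bases, 956 were identical (83.2%), and 20 of the 1106 stretches of 50 bases in SAM2 also occur in SAM1. The other 8 genes had no 50-base stretch repeated in the genome. Shown here is the earliest 120-base stretch that aligned without gaps, on each coding strand, from the R64 genome of RefSeq. It lies at chrXII:515267-515386 (+ strand) in SAM1 and chrIV:1454334-1454453 (- strand) in SAM2, with the 23 mismatched bases in capitals. It was not chosen for likeness and holds no 50-base stretch identical in both genes. How reads that match both genes were counted is not given in the sources used here, and an exchange of counts between SAM1 and SAM2 was not tested.
SAM1: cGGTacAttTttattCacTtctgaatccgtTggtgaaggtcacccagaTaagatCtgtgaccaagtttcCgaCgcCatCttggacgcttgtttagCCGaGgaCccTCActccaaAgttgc
SAM2: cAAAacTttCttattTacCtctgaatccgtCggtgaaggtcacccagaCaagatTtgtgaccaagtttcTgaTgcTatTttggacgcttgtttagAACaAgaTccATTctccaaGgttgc

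MUP1 encodes the high-affinity methionine permease of the plasma membrane. It had 691, 803 and 776 CPM in LP118 at 24 h, against 238, 258 and 263 at 6 h. LP104-17 had 1135, 971 and 1005 at 24 h, against 488, 444 and 469.9 at 6 h, and LP085-Vc 635, 588 and 576 at 24 h, against 1003, 1007 and 1016 at 6 h. The strains did not overlap at either time, with LP118 lowest at 6 h and LP085-Vc lowest at 24 h. MUP1 rose over time in LP118 (1.58 ± 0.09) and LP104-17 (1.15 ± 0.08) and fell in LP085-Vc (-0.75 ± 0.08), and these changes differed between every pair of strains, by 2.33 ± 0.12 for LP118 against LP085-Vc, 1.90 ± 0.12 for LP104-17 against LP085-Vc and 0.43 ± 0.12 for LP118 against LP104-17. At 6 h it was 3.98-fold lower in LP118 than in LP085-Vc, and at 24 h 1.26-fold higher.

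The 5 windows shown here lie upstream of genes of a pathway that Met4 is known to control: those of STR3, with the largest difference, of SAM2, MUP1 and MET2, which changed direction between strains or times, and of STR2, which moved little. Each runs from 400 to 101 bases before the start codon, 300 bases in all, read 5′ to 3′ on the gene's strand from the R64 genome of RefSeq. Capitals mark the letters CACGTG (bound by Cbf1), CTGTGG (Met31 and Met32) and TGACTC (Gcn4, the general activator of amino acid synthesis), searched on both strands, so that CCACAG and GAGTCA mark the other strand. The windows lie at chrVII:156113-156412 (- strand), chrIV:1454565-1454864 (- strand), chrVII:599017-599316 (+ strand), chrXIV:116949-117248 (+ strand) and chrX:667238-667537 (- strand).
STR3: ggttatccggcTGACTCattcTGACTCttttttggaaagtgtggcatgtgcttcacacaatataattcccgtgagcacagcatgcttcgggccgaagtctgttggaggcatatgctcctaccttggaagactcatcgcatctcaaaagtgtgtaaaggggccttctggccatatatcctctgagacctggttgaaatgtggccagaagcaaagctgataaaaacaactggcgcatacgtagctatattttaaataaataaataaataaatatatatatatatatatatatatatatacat
SAM2: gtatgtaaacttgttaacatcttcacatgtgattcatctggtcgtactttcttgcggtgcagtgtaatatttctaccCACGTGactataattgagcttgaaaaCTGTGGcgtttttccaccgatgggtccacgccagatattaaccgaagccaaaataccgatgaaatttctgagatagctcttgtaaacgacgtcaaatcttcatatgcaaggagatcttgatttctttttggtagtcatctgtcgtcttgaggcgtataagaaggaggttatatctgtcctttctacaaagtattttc
MUP1: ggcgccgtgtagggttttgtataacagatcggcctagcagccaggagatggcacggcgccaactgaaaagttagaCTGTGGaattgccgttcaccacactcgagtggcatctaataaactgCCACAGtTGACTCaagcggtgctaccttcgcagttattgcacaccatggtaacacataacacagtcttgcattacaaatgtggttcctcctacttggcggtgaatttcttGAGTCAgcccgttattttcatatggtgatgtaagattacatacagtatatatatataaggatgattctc
MET2: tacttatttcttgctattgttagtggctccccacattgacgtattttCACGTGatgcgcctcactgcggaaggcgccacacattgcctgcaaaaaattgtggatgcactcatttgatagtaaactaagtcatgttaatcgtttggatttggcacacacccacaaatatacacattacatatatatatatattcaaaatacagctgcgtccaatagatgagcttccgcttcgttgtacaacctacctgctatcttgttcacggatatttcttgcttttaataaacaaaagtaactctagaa
STR2: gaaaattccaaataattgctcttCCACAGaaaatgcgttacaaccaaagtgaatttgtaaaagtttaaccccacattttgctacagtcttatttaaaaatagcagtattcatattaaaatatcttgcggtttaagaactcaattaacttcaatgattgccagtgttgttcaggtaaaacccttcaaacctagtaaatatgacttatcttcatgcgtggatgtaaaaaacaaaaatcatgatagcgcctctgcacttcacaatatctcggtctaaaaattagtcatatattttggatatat

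CTGTGG occurred in the windows of 7 of the 10 genes (STR2, CYS4, MET6, MET13, SAM1, SAM2 and MUP1), against 8.5% of 5897 windows of all genes. CACGTG occurred in 3 (CYS3, MET2 and SAM2), against 4.6%, and TGACTC in 4 (STR3, MET6, MET13 and MUP1), against 8.6%. SAM2 alone held both CACGTG and CTGTGG, no marked words overlapped, and the STR3 window held TGACTC in 2 copies and neither of the other words. The windows of STR2 and MET13, which had fewer called differences than the other 8 genes, were among those with CTGTGG. The windows of CYS3 and MET13 overlap the neighbouring genes DEP1 and SCS3. These matches describe letters in the windows and say nothing of binding in these cells.

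Of the 7 regulators, 3 were higher and 2 lower in LP118 against LP085-Vc at 6 h (median 0.14), and 2 were higher and 4 lower at 24 h (-0.36). With 66.0% and 77.7% of all tested genes called at these times, 5 and 6 of 7 lie near the shares over all genes. MET28, a cofactor of Met4, differed most of the 7: set against LP085-Vc, its log2 difference in LP118 was -2.73 at 6 h and 1.52 at 24 h, and in LP104-17 -1.52 and 0.30, of which the last was not called. In LP118 at 6 h MET28 had a mean of only 21.3 counts and 4.18 ± 2.55 CPM (SD), so the size of that difference is uncertain. MET32 was -1.83 at 6 h and -0.36 at 24 h in LP118 and -0.92 and 0.49 in LP104-17, all called. MET4 was 0.41 and -1.02 in LP118, and MET30 0.71 and -1.02, all called. MET30 rose over time in all 3 strains, by 1.63 in LP118, 3.04 in LP104-17 and 3.36 in LP085-Vc. MET31 was not called between strains at either time. MET28 and MET30 lie on chromosome IX, where the median log2 difference over 205 tested genes in LP118 was 0.88 at 6 h and 0.95 at 24 h against LP085-Vc, and GCN4, at 0.47 and 0.63, lies on chromosome V with its lower median. The part of these chromosome-wide differences was not tested.

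The wider pathway was described by 47 genes in 7 lists, all of them tested. The 11 genes of sulfate uptake and assimilation, which supply the sulfide, were mostly higher at 24 h than at 6 h in LP118 and mostly lower in LP085-Vc, with no common direction in LP104-17. In LP118 10 rose over time and none fell (median log2 change 1.81), in LP104-17 5 rose and 2 fell (-0.10), and in LP085-Vc 2 rose and 8 fell (-1.35), beside medians near 0 over all tested genes. Of all tested genes 57.1%, 70.9% and 76.2% were called in these strains, with 26.6% higher in LP118 and 38.3% lower in LP085-Vc, and the 7 of 11 called in LP104-17 lie below that strain's share. Against LP085-Vc, 9 were lower at 6 h in LP118 (median -1.78) and 9 in LP104-17, none being higher, where 33.8% and 5.76% of all tested genes were called lower. At 24 h 9 were higher in LP118 (1.46) and 7 in LP104-17 (0.46), none being lower, where 38.5% and 25.1% of all tested genes were called higher. MET17, the sulfhydrylase that joins sulfide to O-acetylhomoserine, was -3.56 in LP118 against LP085-Vc at 6 h and 1.31 in LP104-17 against LP085-Vc at 24 h, and MET3, the ATP sulfurylase, was -3.16 in LP118 and -1.80 in LP104-17 at 6 h. CACGTG occurred in the upstream windows of 10 of these 11 genes.

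In the other lists the direction varied. The totals called in them are read against 57.1% of all tested genes called over time in LP118, 70.9% in LP104-17 and 76.2% in LP085-Vc, and 66.0% at 6 h and 77.7% at 24 h in LP118 against LP085-Vc. In lists of 3 to 8 genes, totals such as 6 of 7 or 6 of 8 lie near those shares and are no result about the list. The 3 genes of homoserine supply mostly fell over time: 2 fell and none rose in LP118 (median -0.52), 3 fell in LP104-17 (-1.22) and 3 in LP085-Vc (-2.50). HOM2, aspartate-semialdehyde dehydrogenase, was 2.73 in LP118 against LP085-Vc at 24 h. The 8 genes of methionine salvage and polyamines mostly fell over time: 7 fell and none rose in LP118 (median -0.47), 5 fell and 2 rose in LP104-17 (-0.37), and 7 fell and 1 rose in LP085-Vc (-0.55). Of the 7 genes of the methyl cycle and folate, 4 were higher and 2 lower in LP118 against LP085-Vc at 6 h (median 0.23). Among the higher ones was SHM2, a serine hydroxymethyltransferase, at 1.67. Of the 8 genes of transport and alternative cysteine use, 6 were lower and none higher in LP118 against LP085-Vc at 6 h (-0.76), and 3 were higher and 5 lower at 24 h (-1.22). In that list IRC7, a cysteine desulfhydrase, was 4.31 at 24 h, and the S-methylmethionine permease MMP1 was -3.15 at 6 h and -1.35 at 24 h. Of the 47 genes, 4 lie on chromosome V and 2 on chromosome IX, with the medians given above.

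Enzymes that spend S-adenosylmethionine on lipids were looked at as well. ERG6, the sterol methyltransferase of ergosterol synthesis, was lower in LP118 at both times than in LP085-Vc (log2 differences of -1.73 ± 0.08 at 6 h and -1.09 ± 0.08 at 24 h), and in LP104-17 0.12 ± 0.07 at 6 h, not called, and higher at 24 h (0.90 ± 0.07). The phospholipid methyltransferases CHO2 and OPI3 were lower in LP118 at 6 h (-0.59 ± 0.10 and -2.03 ± 0.09) and higher at 24 h (1.07 ± 0.10 and 0.85 ± 0.09). All 3 fell over time in LP085-Vc and in LP104-17, while in LP118 CHO2 and OPI3 rose and ERG6 fell. Over time 76.2%, 70.9% and 57.1% of all tested genes were called in LP085-Vc, LP104-17 and LP118. A total of 3 of 3 called is therefore no result about this list.

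**Figure D5:**
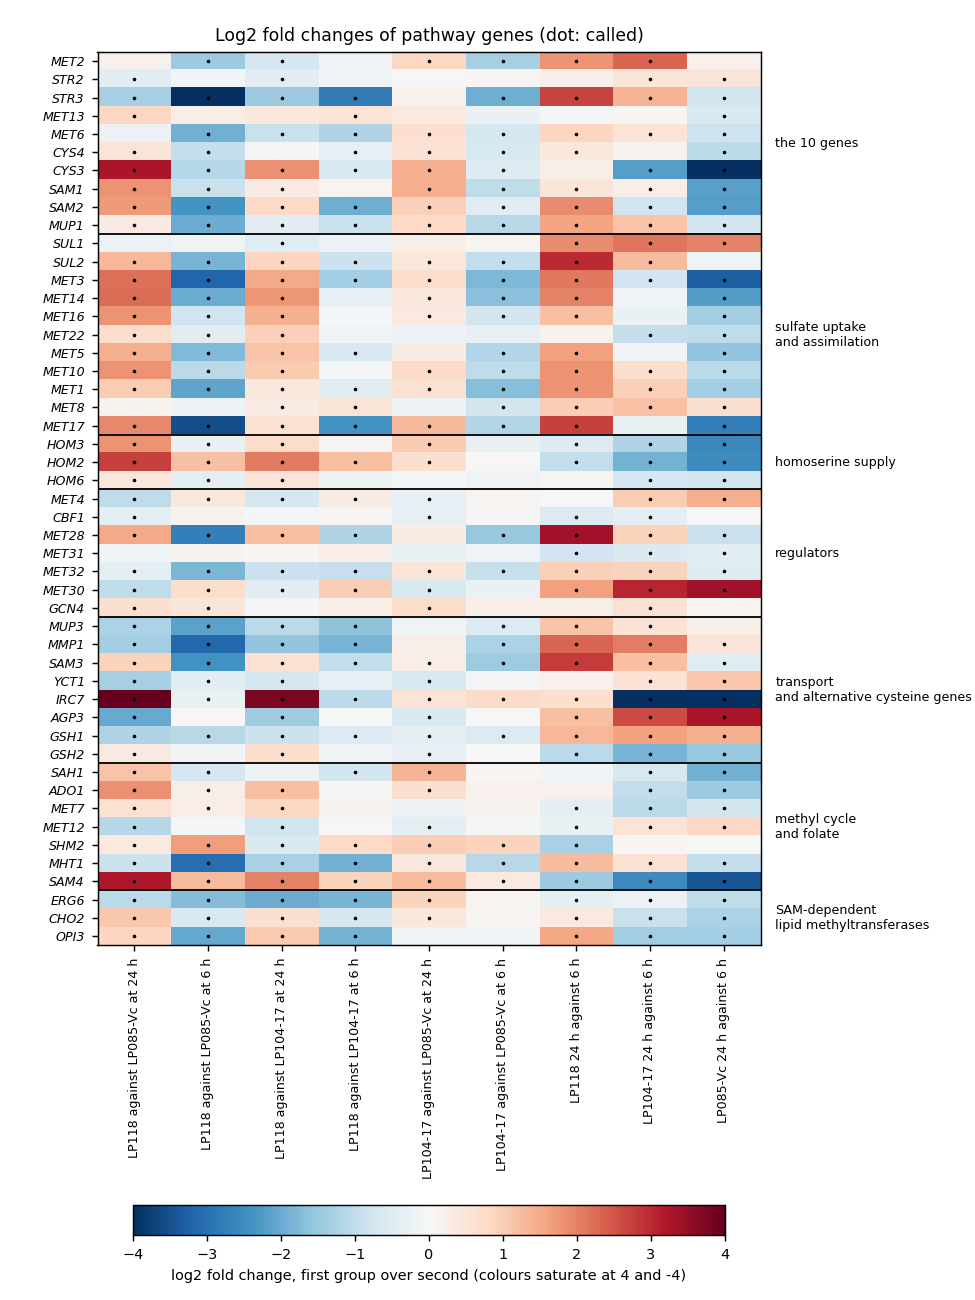
Log2 fold changes of the 10 genes and of the genes of 6 of the 7 further lists (methionine salvage is left out), in rows by list, for the comparisons in columns. Colour gives the size and sign, saturating at 4 and -4, and a dot marks a call. Genes of sulfate assimilation share the sign of most of the 10 genes in LP118 against LP085-Vc at both times, with MET17 at -3.56 at 6 h.

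Likeness across the 6 group means of log2 CPM was described by Pearson's r, over group means that share their libraries and with no test. Among the 10 genes, STR3 was most like MET6 (r = 0.94) and MUP1 (r = 0.90), and STR2 and CYS3 ran opposite to each other (r = -0.89). Among 3895 other genes whose group means spanned at least 1 log2 unit, those most like STR3 were YLR279W (r = 0.99), MET32 (0.98), COQ21 (0.97), CAL4 (0.97) and MHT1 (0.97). Those most like MET6 were MHT1 (0.98), MET32 (0.97), CAL4 (0.96), HXT7 (0.95) and SSA4 (0.94). SAM2 was most like EXG1 (0.98), HBN1 (0.97), MET17 (0.97), ITR1 (0.96) and IML2 (0.94), while SAM1 had lower values, from 0.92 for YKL111C through CDS1 (0.91), AUS1 (0.88) and MF(ALPHA)1 (0.86) to 0.86 for TCD2. No gene was among the 5 most like both SAM1 and SAM2.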

How the data were processed

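Each of the 18 libraries had a table of 6600 genes. Its read counts were deposited as whole numbers and not normalized, per the file headers. FPKM was computed by the authors, per the file headers. Within each library it is proportional to the deposited count over the coding length, to within a relative deviation of 3.5e-08. The library total behind it is not stated and differs from the sum of the deposited counts. In 1 file the count header is repeated over that column. Per the submitters' processing notes, alignment used Bowtie2 2.2.5 with genome build R64. The counting tool and its use of strand: not given in the sources used here. None of the 10 genes overlaps an annotated gene. Identifiers were matched to RefSeq (5917 of 6600).

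Counts were fitted in edgeR 4.0.16 (R 4.3.3) by quasi-likelihood with 1 mean for each of 6 strain-by-time groups, TMM scaling (factors 0.914 to 1.11), filterByExpr (minimum count 10, minimum total 15; 6131 genes tested, 469 removed), 12 residual degrees of freedom, a common biological coefficient of variation of 11.2% and a prior count of 0.125 for fold changes. Tests were two-sided, with Benjamini-Hochberg adjustment over all tested genes and a threshold of 0.05. The procedure was tested on simulated data. Replicate libraries of a group differed beyond counting noise in all 18 pairs (chi-square over degrees of freedom 3.13 to 27.7), so none was taken as a duplicate. Alternatives were DESeq2 1.42.0 size factors and its Wald test, upper-quartile factors, no filter, limma 3.58.1 on log2(FPKM + 1) and log2(FPKM + 0.1), only the groups compared, a replicate block, leaving out chromosomes V and IX with MET6 kept, and leaving out each library.

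All 10 genes are named throughout. Of the 47 further pathway genes, the regulators and lipid methyltransferases may be named, and per comparison up to 3 called genes with the largest rise and 3 with the largest fall. The 10 genes and the lists were chosen with earlier results of these data known. Ratios of counts per coding base were compared by exact permutation tests. Upstream windows and coding stretches were read from the R64 genome.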

Additional observations from a re-analysis of the deposited data

Results flagged for a closer look

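The change between 24 h and 6 h differed between strains for 9 of the 10 genes, by edgeR's test of the difference of differences at an adjusted p below 0.05, in 23 gene-by-strain-pair results in all. Values are log2 differences in the change over time with their standard errors, and in each comparison they rest on 3 libraries per strain and time. Groups of 3 were not screened for outlying libraries. For LP118 against LP085-Vc the 9 differences were 4.40 ± 0.23 for CYS3, 4.10 ± 0.12 for SAM2, 3.44 ± 0.22 for STR3, 2.67 ± 0.14 for SAM1, 2.33 ± 0.12 for MUP1, 1.69 ± 0.20 for MET6, 1.62 ± 0.16 for MET2, 1.46 ± 0.13 for CYS4 and -0.32 ± 0.11 for STR2, with edgeR adjusted p-values from 1.76e-15 (SAM2) to 0.0194 (STR2). For LP104-17 against LP085-Vc the 8 differences were 2.45 ± 0.14 for SAM1, 2.16 ± 0.16 for MET2, 2.09 ± 0.18 for STR3, 1.97 ± 0.22 for CYS3, 1.90 ± 0.12 for MUP1, 1.39 ± 0.12 for SAM2, 1.39 ± 0.19 for MET6 and 1.20 ± 0.13 for CYS4, with edgeR adjusted p-values from 3.61e-10 (SAM1) to 1.65e-05 (MET6). For LP118 against LP104-17 the 6 differences were 2.70 ± 0.12 for SAM2, 2.44 ± 0.22 for CYS3, 1.35 ± 0.22 for STR3, 0.43 ± 0.12 for MUP1, -0.29 ± 0.11 for STR2 and -0.54 ± 0.16 for MET2, with edgeR adjusted p-values from 9.19e-13 (SAM2) to 0.0431 (STR2). STR3, CYS3, MET2, SAM2 and MUP1 were called in all 3 pairs of strains, and MET13 in none. What part of the genome passed in at least 1 pair, in all 3 or in none was not computed. These counts over several pairs are therefore not set apart from the genome. By pair, the genome-wide share was 60.1% (LP118 and LP085-Vc), 33.1% (LP104-17 and LP085-Vc) and 49.8% (LP118 and LP104-17). The 6 of 10 for LP118 and LP104-17 lie near that last share. The pairs share libraries and are not independent. The calls of STR2 were lost under several settings.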

How the results depend on the processing

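Groups of 3 libraries limit the precision of every value, and STR3 in LP118 at 6 h rests on 39 to 62 counts. In 198 recomputations (12 comparisons under every alternative) the total of the 10 genes called, in either direction, stayed within 1.5 times its value. Its split by direction did not: in the change over time of LP118 against LP104-17 the 4 more positive genes became 7 with upper-quartile factors, and of the 2 more negative genes STR2 lost its call under several settings and MET2 in the limma fits. The number called over all genes moved by more than 1.5 times in LP104-17 against LP085-Vc at 6 h, to 344 and 1206 against 708. Of 1980 recomputed log2 fold changes of single genes, 1899 kept direction and call, 37 lost the call, 44 gained it and 0 reversed. Of those that changed, 31 came from leaving out a library and 50 from another setting, and 30 were in STR2 and 22 in MET13; the cause was not tested. Leaving out 1 library at a time moved the number of the 10 genes called to between 7 and 8 in LP104-17 against LP085-Vc at 6 h, 8 and 8 in LP118 against LP085-Vc at 6 h, 6 and 7 in LP118 against LP104-17 at 6 h, 7 and 7 in LP104-17 against LP085-Vc at 24 h, 8 and 8 in LP118 against LP085-Vc at 24 h, 8 and 9 in LP118 against LP104-17 at 24 h, 8 and 9 in LP085-Vc 24 h against 6 h, 7 and 8 in LP104-17 24 h against 6 h, 7 and 8 in LP118 24 h against 6 h, 8 and 9 in the change over time of LP104-17 against LP085-Vc, 8 and 10 in the change over time of LP118 against LP085-Vc and 5 and 7 in the change over time of LP118 against LP104-17. Other scalings shifted the median of all genes by more than 0.1 in 6 of the 12 comparisons, most in the change over time of LP118 against LP085-Vc, by 0.25 in the limma fit to log2(FPKM + 0.1) and by 0.18 with upper-quartile factors.

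Same-numbered libraries did not pair throughout: in 45 pairs across groups the correlation of their deviations from the group means was over 0.1 in 10 pairs only, and in no comparison for every pair. The highest values, 0.65 for replicate 2 and 0.43 for replicate 1, were between LP085-Vc and LP104-17 at 6 h, where replicate 3 gave -0.32. Whether some libraries of these groups were handled together was not tested. With the replicate number as a block, the number of genes called was 9 against 8 in LP118 against LP104-17 at 24 h, where MET13 gained its call (adjusted p = 0.043), and the block changed no other call.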
